A study of Mus musculus with 18 samples.

Results

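Of the 15515 autosomal DMC1 hotspots of Hum/Hum males, 3132 had no hotspot centre within 1000 bp in the lists of any of the 3 heterozygotes that carry a single copy of the Hum allele. These hotspots, called lost below, were chosen by measured values, namely the presence or absence of a call in those lists, and made up 20.2% of the Hum/Hum hotspots (3132 of 15515, Wilson 95% interval 19.6 to 20.8%). The other 12383 had a centre within 1000 bp in at least 1 of the 3 lists and are called retained. The word lost therefore describes calls: a hotspot without a call can still carry breaks below the level that was called.

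The heterozygotes were B6/Hum males of the C57BL/6J strain (B6), PWD/Hum sons of PWD mothers and B6 fathers, known as the rescue cross, and Hum/PWD sons of the opposite cross. They were set against C57BL/6J males homozygous for the humanized allele, in which the zinc fingers of mouse PRDM9 that touch DNA are replaced by the human ones. All these males were about 10 weeks old, and whole testis was used. Each DMC1 map came from 1 library, so no map had a replicate and no p-value was made between genotypes. H3K4me3 in Hum/Hum testis came from 1 library of adult B6 males, split by the authors into 2 pseudoreplicates, with 70 to 80 M read pairs of 51 bp per the labels' protocols. Hotspots of the other alleles came from the PWD/PWD map of PWD/PhJ males, also about 10 weeks old, and from a B6/B6 map deposited for the series as a whole. The B6/B6 map is a library of other submitters with no sample in the series, and the age of its animals and its depth are not known here. In whole testis, fewer cells with a break at a hotspot and less signal per cell cannot be told apart.

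PRDM9 binds DNA through its zinc fingers and places trimethylation on lysine 4 of histone H3 (H3K4me3) on nearby nucleosomes of meiotic cells. SPO11 then cuts DNA at some of the marked sites, and the resected single-stranded ends are covered by the strand-exchange protein DMC1, so that DMC1 ChIP-seq maps the breaks. Each allele of Prdm9 recognises its own DNA motif and so sets its own hotspots. In a heterozygote both proteins are made and share the break machinery.

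Windows of 200 bp are shown for 4 lost hotspots and 1 retained hotspot, because they let the human motif be seen at sites of either fate. They are the 4 hottest lost hotspots, and the hottest hotspot found in all 3 heterozygotes, whose window held the motif, outside PRDM9-independent bins. Capitals mark the match to CCNCCNTNNCCNC, the degenerate motif known for the human allele, searched on both strands. Sequences are the forward strand of RefSeq GRCm38.p6 (mm10). The motif was in 9.53% of all 15515 Hum/Hum windows.
lost, in an exon of the pseudogene Ube2d-ps, chr11:5781181-5781380, motif on the reverse strand: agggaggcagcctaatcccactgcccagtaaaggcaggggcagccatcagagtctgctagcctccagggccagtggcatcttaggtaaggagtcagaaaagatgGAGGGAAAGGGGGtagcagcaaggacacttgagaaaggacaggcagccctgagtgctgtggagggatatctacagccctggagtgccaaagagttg
lost, in an intron of Zfp423, chr8:87672233-87672432, motif on the forward strand: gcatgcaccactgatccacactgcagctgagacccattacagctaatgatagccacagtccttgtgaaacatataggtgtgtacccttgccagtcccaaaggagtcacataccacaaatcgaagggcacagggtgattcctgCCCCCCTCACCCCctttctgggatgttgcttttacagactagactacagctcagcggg
lost, 376027 bp from 4930474N05Rik, chr14:36476041-36476240, motif on the forward strand: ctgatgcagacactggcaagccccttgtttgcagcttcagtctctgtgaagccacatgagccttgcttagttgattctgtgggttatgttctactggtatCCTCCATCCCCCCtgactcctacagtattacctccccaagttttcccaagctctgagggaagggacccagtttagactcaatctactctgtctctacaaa
lost, 158765 bp from Wrn, chr8:33075519-33075718, motif on the forward strand: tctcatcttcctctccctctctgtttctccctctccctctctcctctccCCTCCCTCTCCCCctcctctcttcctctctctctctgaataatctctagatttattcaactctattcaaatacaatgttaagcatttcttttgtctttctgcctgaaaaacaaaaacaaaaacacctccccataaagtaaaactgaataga
found in all 3, in an intron of Chd7, chr4:8811087-8811286, motif on the reverse strand: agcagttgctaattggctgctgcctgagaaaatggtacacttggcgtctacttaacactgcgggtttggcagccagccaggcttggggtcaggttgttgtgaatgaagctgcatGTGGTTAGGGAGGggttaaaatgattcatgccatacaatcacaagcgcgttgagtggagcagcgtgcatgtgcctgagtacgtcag

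The window in Chd7, a gene for a chromatin remodeller, also met the stricter form CCTCCCTNNCCAC on the reverse strand, and its hotspot had a DMC1 heat of 645.4. DMC1 heat is the authors' relative signal of a hotspot within its own map. The 4 lost windows came from hotspots with a heat of 141.1 at Ube2d-ps, 119.9 in Zfp423, 65.9 near 4930474N05Rik and 65.4 near Wrn. The nearest heterozygote centre lay 1006 bp away at Ube2d-ps, 2036 bp in Zfp423, 5774 bp near 4930474N05Rik and 107831 bp near Wrn. Ube2d-ps and Zfp423 each had another Hum/Hum hotspot, found in all 3 heterozygotes, 1075 and 2018 bp away. The match near Wrn lay in a run of C and T bases. The middle of the motif lay 10 bp, 48 bp and 6 bp downstream of the centre in the first 3 lost windows and 45 bp upstream in the window near Wrn (-45 bp), and 20 bp downstream in Chd7. All 5 windows were picked for holding the motif, so their motifs show where it lies and not how often it occurs.

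Lost hotspots were cool ones. Their heat had a median of 23.75 and a range of 10.9 to 406.4, against a median of 116.8 for the 7636 hotspots found in all 3 heterozygotes. Hotspots found in 1 list had a median of 33.9 (n = 2366) and those found in 2 lists a median of 48.1 (n = 2381), so the order of heat followed the number of lists. The lost hotspots were 20.2% of the hotspots and carried 5.70% of the summed heat, and those found in all 3 carried 79.1%. In the coolest decile of Hum/Hum hotspots, with heats up to 20.9, 1125 of 1564 were lost (71.9%, interval 69.7 to 74.1%). In the hottest decile, from 213.4 upward, 1 of 1549 was lost (0.0646%, interval 0.0114 to 0.365%). Up to a heat of 37.99, the 90th percentile of the lost, 2818 of 5421 hotspots were lost (52.0%), and above it 314 of 10094 (3.11%). These values follow from the rule, since a call in any map needs signal, and are given as a description.

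**Figure D1:**
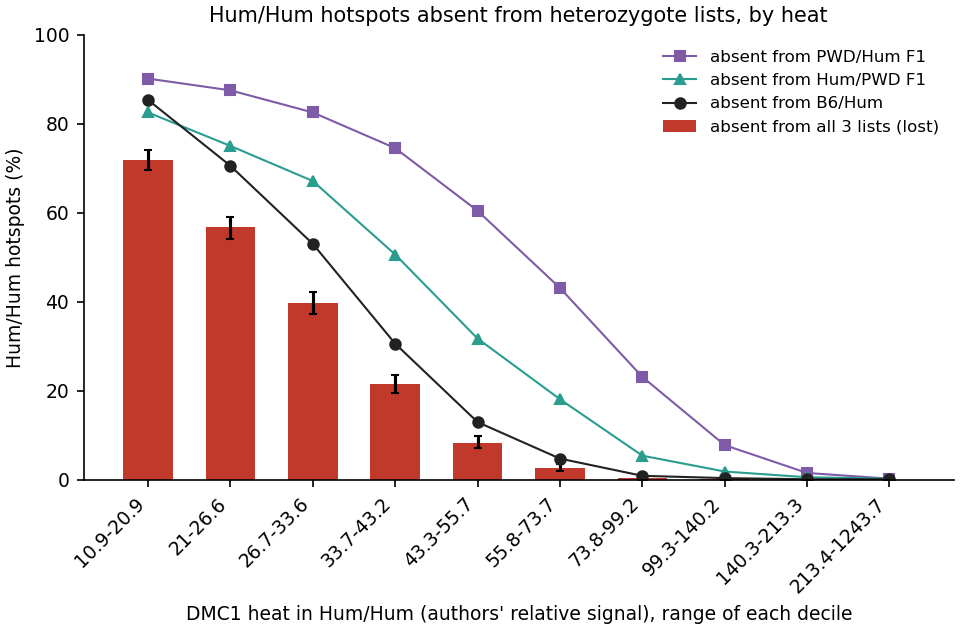
Share of Hum/Hum hotspots (y axis, %) in each decile of Hum/Hum DMC1 heat (x axis, range of heat). Bars are the share absent from all 3 heterozygote lists with Wilson 95% intervals, and lines are the share absent from each list. The bars go from 71.9% in the coolest decile to 0.0646% in the hottest, and the PWD/Hum F1 line lies highest in all deciles up to a heat of 213.3.

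The 3 lists did not contribute alike. B6/Hum held 74.1% of the Hum/Hum hotspots, Hum/PWD 66.6% and PWD/Hum 52.9%. Of the hotspots found in a single list, 1795 were in B6/Hum alone, 506 in Hum/PWD alone and 65 in PWD/Hum alone. B6/Hum males share the B6 genome with Hum/Hum males on both chromosomes of each pair, and the 2 F1 crosses share it on 1. The lists also differed in length, with 16163 autosomal hotspots in B6/Hum, 20623 in Hum/PWD and 15019 in PWD/Hum. With 1 library per genotype, genome, list length and library cannot be told apart. Their bearing on the shares was not tested. Hotspots found in both PWD crosses but not in B6/Hum numbered 319 and had a median heat of 25.8, close to the lost. The lowest heat called was 8.8 in B6/Hum, 13.7 in PWD/Hum and 5.8 in Hum/PWD, and each map has its own scale. Where a hotspot as cool as the coolest decile of the lost was retained, its call was often near that limit. Of 49 such hotspots in B6/Hum 79.6% were under 2 times the lowest heat called there, as were 71.7% of 46 in PWD/Hum and 56.2% of 80 in Hum/PWD.

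To set lost hotspots against retained ones of like heat, retained hotspots were weighted so that each of 10 strata, cut at the deciles of lost heat, counted as much as it did among the lost. The weighted retained hotspots had a median heat of 23.7, against 23.75 for the lost. The top stratum is open: from a heat of 38 upward the lost had a median of 44.6 and the retained of 94.9, so means were less well matched than medians, at 25.81 in lost and 33.92 in weighted retained hotspots.

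Lost hotspots carried less H3K4me3 in Hum/Hum testis than retained ones of like heat. Enrichment, the authors' estimate relative to local background with a minimum of 0, had a median of 0.296 at lost hotspots (interval 0.283 to 0.308, n = 3131) and a weighted median of 0.481 at retained ones. The ratio was 0.616 (0.588 to 0.641, covering the lost median only). The interquartile range of the lost was 0.139 to 0.545 and that of the weighted retained 0.206 to 0.927, so the distributions overlapped widely. H3K4me3 was not used by the rule. The hotspots of 1 library are not replicates, and the interval covers the spread of hotspots in that library.

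The fragment counts behind this were small. A lost bin of 1 kb held a median of 41 ChIP fragments of both pseudoreplicates together (interquartile range 28 to 66), and a weighted retained bin 53 (31 to 95). Input had a median of 39 fragments in lost and 37 in weighted retained bins, and a mean of 41.09 in lost and 49.24 in retained ones, since all 32 bins with input above 10 times the median were retained. Summed over bins without those 32, ChIP over input was 0.707 in pseudoreplicate 1 and 0.704 in pseudoreplicate 2 at lost hotspots, against 1.15 in both pseudoreplicates at retained ones. The ratio of lost to retained was 0.616 from pseudoreplicate 1 alone and 0.611 from pseudoreplicate 2 alone. These are ratios of sums that include background, a measure unlike the ratio of median enrichments above. The median ChIP fragments of lost and weighted retained bins had a ratio of 0.774. With the 32 bins kept, ChIP over input was 0.707 at lost and 0.977 at retained hotspots in pseudoreplicate 1, and the ratio over both pseudoreplicates was 0.721. The pseudoreplicates are parts of 1 library and show counting error only.

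The gap depended on heat. In the coolest stratum, with heats of 10.9 to 15.3, median enrichment was 0.168 at 314 lost and 0.162 at 121 retained hotspots, which did not differ beyond their spread. In the second stratum it was 0.225 at lost and 0.247 at retained hotspots. At heats of 25.8 to 28.1 it was 0.319 at 303 lost and 0.530 at 290 retained hotspots, and at 31.9 to 37.9 it was 0.324 at 314 lost and 0.595 at 803 retained ones. In the open top stratum it was 0.465 at 314 lost and 1.32 at 9780 retained ones, where heat also differed. Lost hotspots had the lower median in 9 of 10 strata. The bins of the 2 coolest strata were unlike in other ways. Input had a median of 37 fragments in lost and 26 in retained bins of the coolest stratum, and 43 and 33 in the second. Soft-masked repeat sequence made up a mean of 30.7% of lost and 51.6% of retained windows of 200 bp in the coolest, and 24.4 and 46.6% in the second. Whether this bears on the medians was not tested. In the 2 coolest strata 58 of 226 retained hotspots (25.7%) lay within 1 kb of a B6 or PWD hotspot, against 10 of 613 lost ones (1.63%). Heterozygote lists also hold hotspots of the B6 or PWD allele, so a centre found there need not be one of the Hum allele. Without hotspots that have a B6 or PWD hotspot within 1 kb, lost hotspots had the lower median in 10 of 10 strata, and in the coolest it was 0.169 at 304 lost and 0.225 at 86 retained hotspots.

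**Figure D2:**
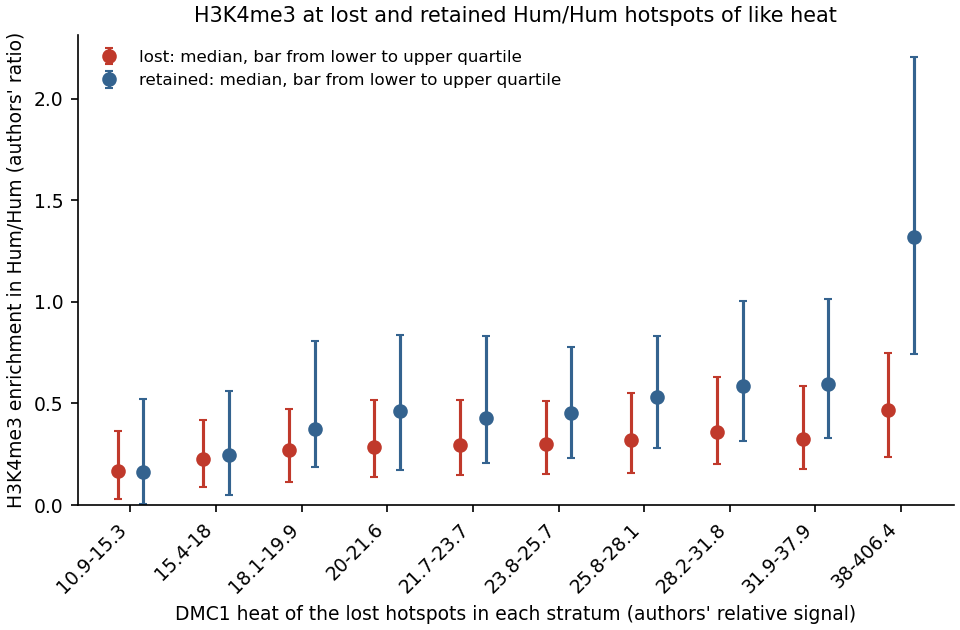
H3K4me3 enrichment in Hum/Hum testis (y axis, authors' ratio to local background) at lost and retained Hum/Hum hotspots, in 10 strata of DMC1 heat (x axis, range of the lost). Points are medians and bars run from the lower to the upper quartile over hotspots. The medians are 0.168 in lost and 0.162 in retained hotspots of the coolest stratum and part from the third stratum on, and retained hotspots of the last stratum are hotter than the lost ones.

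Some lost hotspots had no H3K4me3 that could be detected. The deposited p-value, from the authors' likelihood ratio test against no enrichment, was below 0.05 at 69.3% of the lost hotspots, while it was so at 89.6% of all Hum/Hum hotspots. It was 0.05 or more at 960 of 3131 lost hotspots (30.7%, interval 29.1 to 32.3%), against a weighted 21.1% of retained ones. Among hotspots found in all 3 the share was 1.53% without weighting, and 24.1% once they were weighted to the heat of the lost. The weighted value rests on few cool hotspots. In the coolest stratum at most 46 could be in all 3, the number found in PWD/Hum. The difference of 9.52 percentage points at like heat is larger than the interval of the lost share. The share without detected H3K4me3 was 52.1% of lost and 54.6% of retained hotspots in the coolest stratum, and 23.6% of lost and 10.1% of retained hotspots at heats of 31.9 to 37.9. With this number of fragments a bin at or above the limit may still be marked. At a limit of 0.001 the share without detected H3K4me3 was 52.6% of lost and a weighted 35.7% of retained hotspots, so whether most lost hotspots count as marked depends on the limit.

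PRDM9-independent H3K4me3 was rarer at lost hotspots, and transcription starts were about as rare. The authors marked bins that overlap a peak likely to be independent of PRDM9, and 171 lost hotspots (5.46%, interval 4.72 to 6.31%) lay in such a bin, against a weighted 8.60% of retained ones. The lost had the lower share in 8 of 10 strata. In the 2 coolest the order was opposite, with 5.10% of lost and 4.96% of retained hotspots in the first and 8.36 and 6.67% in the second. A protein-coding transcription start lay within 1000 bp of 61 lost hotspots (1.95%, interval 1.52 to 2.49%) and of a weighted 2.48% of retained ones, with 2.32% over all Hum/Hum hotspots. The interval reaches the retained value, and without the PRDM9-independent and high-input bins the order turned, to 1.42% of lost and 0.876% of retained hotspots.

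The position relative to hotspots of the other alleles was compared next, because in the heterozygotes the Hum protein acts beside a B6 or PWD protein. The median distance to the nearest B6/B6 hotspot was 41444.5 bp for lost and 42143 bp for weighted retained hotspots, and to the nearest PWD/PWD hotspot it was 32093.5 bp for lost and 31614 bp for retained ones. These medians differed by less than the interval of the lost median. At shorter range, 969 lost hotspots had a B6 or PWD hotspot between 1 and 10 kb away (30.9%, interval 29.3 to 32.6%), against a weighted 23.9% of retained ones. Over all Hum/Hum hotspots this share was 29.3%, close to that of the lost. The lost had the higher share in 9 of 10 strata. It was 28.7% of lost and 17.4% of retained hotspots in the coolest stratum, 33.8% of lost and 30.4% of retained ones at heats of 31.9 to 37.9, and 36.6% of lost and 29.6% of retained ones in the open top stratum.

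Within 1 kb the order was opposite. A B6 or PWD hotspot lay within 1 kb of 67 lost hotspots (2.14%, interval 1.69 to 2.71%) and of a weighted 11.3% of retained ones. The rule itself lowers this share among the lost, since a B6 or PWD hotspot called in a heterozygote makes a nearby Hum/Hum hotspot count as retained, and it raises the share of the lost in the next bands for the same reason. Among hotspots with no B6 or PWD hotspot within 1 kb, the difference at 1 to 10 kb was 4.81 percentage points, with 31.6% of lost and 26.8% of retained hotspots. With the match limit at 2000 bp it was 4.30 points. From 1 to 2 kb of a B6 hotspot lay 81 lost hotspots (2.59%, interval 2.09 to 3.20%), against 0.980% of retained ones, and from 1 to 2 kb of a PWD hotspot 65 lost hotspots (2.08%), against 1.93%. Beyond 50 kb from both lay 16.5% of lost and 17.5% of retained hotspots.

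**Figure D3:**
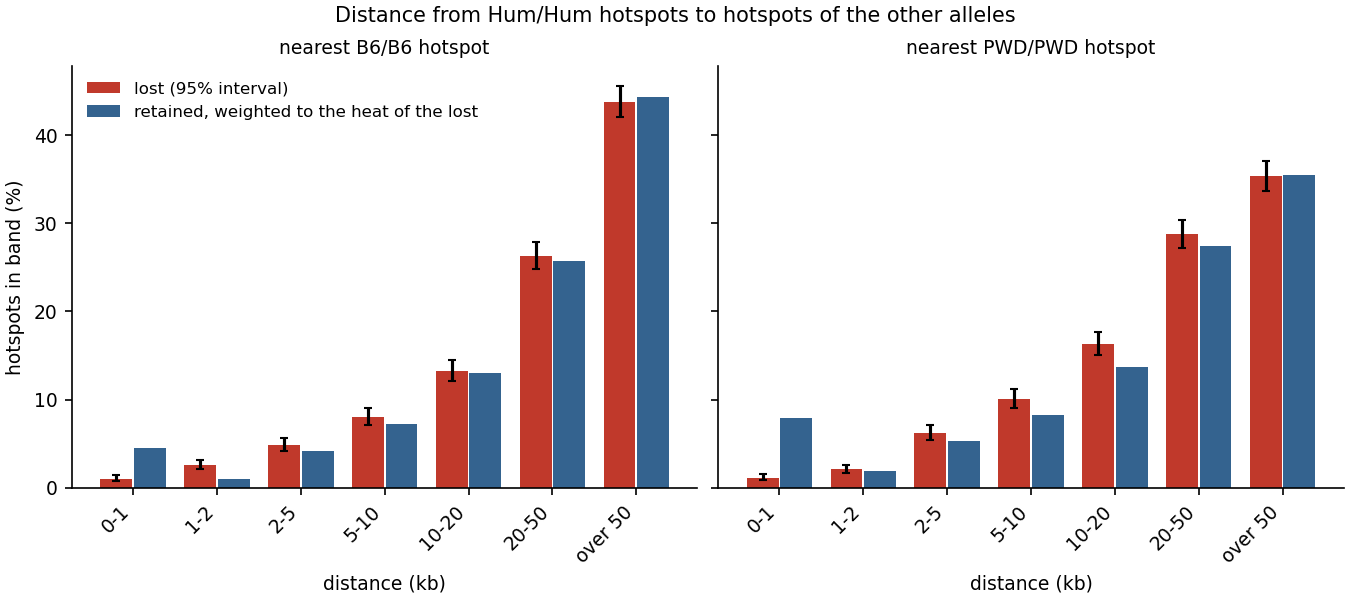
Share of hotspots (y axis, %) by distance in kb from the centre to the nearest B6/B6 hotspot (left panel) and PWD/PWD hotspot (right panel). Red bars are lost hotspots with Wilson 95% intervals and blue bars retained ones weighted to the heat of the lost. In the first band the lost are at 1.02% for B6 and 1.15% for PWD, under 4.55% and 7.94% of the retained, a share that the rule itself lowers, and beyond 20 kb the bars are close.

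How far the rule's limit of 1000 bp shaped the list was read from the nearest centres. Of the retained hotspots 94.6% lay within 250 bp of a heterozygote centre and 93 lay between 500 and 1000 bp. Of the lost, 45 had a heterozygote centre between 1000 and 1500 bp away and 163 (5.20%) one within 2500 bp, and the median distance to the nearest was 24748.5 bp. Of these 163, another Hum/Hum hotspot lay within 2500 bp of 61, a B6 or PWD hotspot lay within 2500 bp of 70 of the other 102, and 32 had neither.

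Just outside the limit, the 5 nearest lost hotspots were at 1006 bp near Tbc1d32, a gene for a ciliary protein, and at Ube2d-ps, at 1008 bp in Ncoa1, a nuclear receptor coactivator, at 1010 bp in Gm28526 and at 1020 bp in Gm48727. Their heats were 28.9 near Tbc1d32, 141.1 at Ube2d-ps, 97.2 in Ncoa1, 18.6 in Gm28526 and 406.4 in Gm48727. Just inside it, the 5 retained hotspots farthest from a heterozygote centre were at 1000 bp in Ahi1, 995 bp near Plppr1, 978 bp near Tut4, 975 bp in Col19a1 and 970 bp in Rftn1. Their heats were 24.1 in Ahi1, 36.1 near Plppr1, 59.2 near Tut4, 24.4 in Col19a1 and 23.7 in Rftn1. Both sets held cool hotspots, and the lost set also held the 2 at Ube2d-ps and in Gm48727, which were hotter than 100.

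Most of the hottest lost hotspots lay close to another Hum/Hum hotspot. Of the 10 hottest, with heats from 80.7 to 406.4, 7 had a heterozygote centre within 2500 bp in all 3 lists. The same 7 had another Hum/Hum hotspot within 2500 bp that was itself found in all 3 heterozygotes. The hottest lay in an intron of Gm48727 (chromosome 10, centre 8928785), with a heat of 406.4 and an H3K4me3 enrichment of 3.09 from 131 and 111 ChIP and 36 input fragments. Another Hum/Hum hotspot of heat 267.2 lay 1079 bp away, and the nearest heterozygote centres were 1020, 1021 and 1023 bp away. Gm32284 (chromosome 10, centre 41099272), P2ry14, a nucleotide-sugar receptor, the sequence near Jade1, a subunit of a histone acetyltransferase complex, and Pea15a, a death-effector-domain protein, were of the same kind. At P2ry14 the hotspot had a heat of 110.4 and its neighbour, 1411 bp away, one of 196.9. The hotspot in Zfp423, a zinc-finger transcription factor of neural development, had a heat of 119.9, with a neighbour of 198.9 at a distance of 2018 bp and a PWD hotspot 935 bp away.

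Over all lost hotspots such neighbours were few. Another Hum/Hum hotspot lay within 2500 bp of 83 lost hotspots (2.65%, interval 2.14 to 3.27%) and of a weighted 1.89% of retained ones. Among the hottest 314 lost hotspots the share was 10.2% (interval 7.31 to 14.0%), against 1.81% of the other 2818. In the top stratum it was 2.58% of retained hotspots. The neighbour was hotter in 66 of the 83 lost cases (79.5%) and in 122 of 293 retained ones (41.6%). These cases were not weighted for heat. The hotspots themselves had a median heat of 32.7 in the lost and 92 in the retained cases, so a cooler hotspot more readily had a hotter neighbour. Without hotspots that have such a neighbour, the H3K4me3 ratio of lost to retained was 0.618. So few sites could hardly move a ratio of medians.

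Among the hottest lost hotspots without a heterozygote centre within 2500 bp, H3K4me3 differed widely. An intron of Sqle, an enzyme of cholesterol synthesis (chromosome 15, centre 59317106), had a heat of 73.9 and an enrichment of 8.29, from 268 and 263 ChIP and 31 input fragments, in a bin marked as PRDM9-independent. Near Ddhd1, a phospholipase gene 84538 bp away (chromosome 14, centre 45742681), a heat of 80.7 came with an enrichment of 0.185 from 19 and 16 ChIP and 38 input fragments. In an intron of Skint7 (chromosome 4, centre 111975148) a heat of 72.7 came with an enrichment of 1.82 outside PRDM9-independent bins, and the nearest heterozygote centre was 299836 bp away. In a coding exon of Gcn1l1, an activator of the amino acid starvation response (chromosome 5, centre 115613461), the heat was 71.4 and the enrichment 0.940. High H3K4me3 at lost hotspots was also seen in PRDM9-independent bins in a coding exon of Prr3 (enrichment 12.2, heat 24.7) and in introns of Lpcat2b, a phospholipid acyltransferase gene (enrichment 10.3, heat 13.2), and Gm11335 (enrichment 8.40, heat 21.8).

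The human motif was present at lost hotspots at a share close to that at retained ones of like heat. The degenerate motif was in 255 lost windows of 200 bp (8.14%, interval 7.23 to 9.15%) and in a weighted 7.93% of retained windows. It was in 10.8% of the windows found in all 3 without weighting. Once these were weighted to the heat of the lost it was in 8.26%, a value that rests on few cool hotspots. In windows of 600 bp it was in 20.2% of lost hotspots (interval 18.8 to 21.7%) and in a weighted 21.9% of retained ones. Windows of other alleles held it less often, with 206 of 16974 B6/B6 windows (1.21%, interval 1.06 to 1.39%) and 270 of 21103 PWD/PWD windows (1.28%, interval 1.14 to 1.44%). In windows 5 kb away from lost hotspots it was in 1.92% (interval 1.49 to 2.46%). The stricter form, whose matches are all matches of the degenerate one, was in 23 lost windows (0.734%, interval 0.490 to 1.10%), in a weighted 0.462% of retained windows and in 5 B6/B6 windows (0.0295%). For the degenerate motif in 200 bp, the lost share lay above the intervals of the B6/B6 and PWD/PWD windows, and its own interval held the value of retained windows of like heat. In 600 bp the retained value lay just above the interval of the lost, and for the stricter form just below it. A window without a match says only that these letters were not there.

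The motif was also centred at lost hotspots. It was in 4.25% of lost hotspots within 100 bp before the centre and in 4.53% within 100 bp after it, against 5.34 and 5.14% of retained ones without weighting. From 300 to 400 bp after the centre the shares were 1.34% of lost and 1.38% of retained hotspots. In B6/B6 hotspots the share within 100 bp after the centre was 0.607%.

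**Figure D4:**
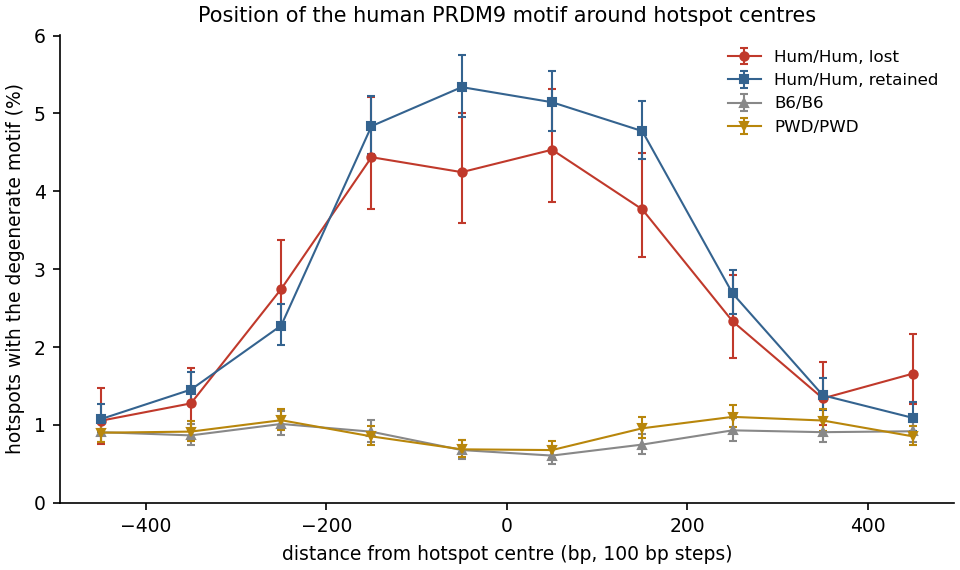
Share of hotspots (y axis, %) with a match to the degenerate human motif in 100 bp steps of distance from the centre (x axis, bp), with Wilson 95% intervals, for lost and retained Hum/Hum hotspots (not weighted for heat) and for B6/B6 and PWD/PWD hotspots. Both Hum/Hum curves peak within 200 bp of the centre, at up to 4.53% in lost and 5.34% in retained hotspots, and the B6/B6 curve stays between 0.607 and 1.01%.

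Among lost hotspots, motif and mark went together. The 255 lost hotspots with the motif had a median enrichment of 0.365 (interval 0.330 to 0.404) and a heat of 24.9, against an enrichment of 0.288 (0.274 to 0.303) and a heat of 23.6 in the 2877 without it. H3K4me3 was detected at 82.0% of lost hotspots with the motif and at 68.2% of those without it. The intervals of the medians do not overlap. The GC content of the window had the same median of 45.5% in lost and weighted retained hotspots, and soft-masked repeat sequence made up a mean of 22.5% of lost and 29.5% of retained windows.

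The share lost differed between chromosomes. It was lowest on chromosome 19, at 58 of 433 (13.4%, interval 10.5 to 16.9%), and highest on chromosome 11, at 218 of 957 (22.8%, interval 20.2 to 25.5%), with a median of 20.06% over 19 autosomes. The share that the heat of its hotspots would give each chromosome ran from 18.2 to 21.6%. This value lay outside the interval on 4 chromosomes. Chromosome 17, which carries Prdm9, lost 84 of 592 (14.2%, interval 11.6 to 17.2%) where heat gave 20.6%, and chromosome 19 had 13.4% where heat gave 20.2%. Chromosome 18 lost 96 of 553 (17.4%, interval 14.4 to 20.7%) where heat gave 21.2%. Chromosome 1 lost 257 of 1143 (22.5%, interval 20.16 to 24.99%) where heat gave 19.1%. The intervals are per chromosome and not adjusted for the 19 looked at.

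The lower shares of chromosomes 17 and 19 were seen without each heterozygote list in turn. They were 26.0% on chromosome 17 and 23.8% on chromosome 19 without B6/Hum, where 31.8% of all hotspots were absent. Without PWD/Hum they were 14.7% on chromosome 17 and 14.8% on chromosome 19, beside 20.6% of all, and without Hum/PWD 18.2% on chromosome 17 and 15.7% on chromosome 19, beside 23.4% of all. H3K4me3 was lower at lost than at weighted retained hotspots on 19 of 19 autosomes, with a ratio from 0.460 on chromosome 19 to 0.877 on chromosome 1. The weights were those made over all autosomes, so heat was not matched again within each chromosome. Along chromosomes, with the length cut in 5 equal parts, the share lost was 18.6% (interval 17.2 to 20.2%) in the first, where heat gave 19.2%. From 20 to 40% of the length it was 21.6% (20.1 to 23.0%), above the 18.8% given by heat, and from 40 to 60% it was 22.4% (20.9 to 23.9%), where heat gave 21.04%. It was 18.5% (17.2 to 19.9%) from 60 to 80%, below 19.99% given by heat, and 19.9% (18.6 to 21.2%) in the last, below 21.5%. The value given by heat lay outside the interval in 3 of the 5 parts.

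**Figure D5:**
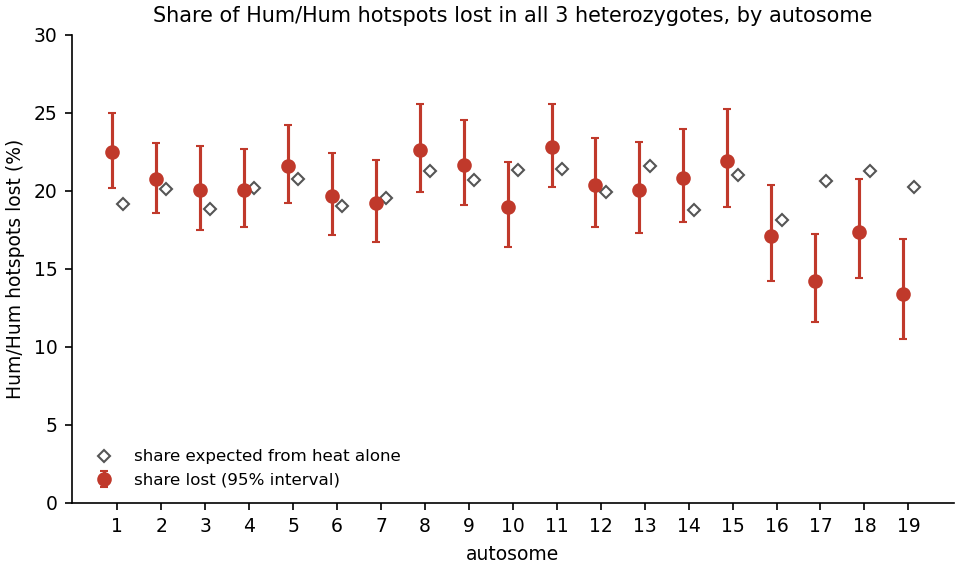
Share of Hum/Hum hotspots lost in all 3 heterozygotes (y axis, %) on each autosome (x axis). Red points are shares with Wilson 95% intervals and open diamonds the share expected from the heat of the hotspots there. Chromosomes 17, 18 and 19 lie below their diamonds, at 14.2, 17.4 and 13.4%, and chromosome 1 above its own, at 22.5%.

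In gene annotation lost hotspots were close to the whole map, but in most classes not to retained hotspots of like heat. Introns held 1711 (54.6%, interval 52.9 to 56.4%), against a weighted 50.3% of retained hotspots and 55.3% of all. Intergenic sequence held 1216 (38.8%, interval 37.1 to 40.5%), against 44.0% of retained hotspots and 38.4% of all. Coding exons held 81 (2.59%, interval 2.09 to 3.20%) against 1.97%, and untranslated regions 68 (2.17%) against 2.09%. The retained value lay outside the interval of the lost for introns, intergenic sequence and coding exons.

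Genes of meiosis were looked up as a list, with a margin of 2000 bp. Of 14 Hum/Hum hotspots at 38 genes of break formation and repair 3 were lost (21.4%, interval 7.57 to 47.6%), beside 11.4% given by heat and the 20.2% of all hotspots. They lay in introns of Mre11a and Rad50, partners in the complex that processes break ends, and of Mei4, which is needed for break formation. Their heats were 56.6 in Mre11a, 45.8 in Rad50 and 25.6 in Mei4. H3K4me3 enrichment was 1.09 in Rad50 from 57 and 63 ChIP and 44 input fragments, 0.175 in Mre11a, where the deposited p-value was 0.0658, and 0.308 in Mei4, where it was 0.0566. None of 4 hotspots at 18 genes of synapsis and cohesion was lost, with an upper interval bound of 49.0%, beside 2.29% given by heat.

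In larger gene families the intervals of the share lost all held the background of 20.2%. Lost were 7 of 29 hotspots at olfactory receptor genes, 2 of 9 at vomeronasal receptor genes, 25 of 103 at genes named Zfp for zinc-finger proteins (24.3%, interval 17.02 to 33.4%), 1 of 8 at protocadherins and 31 of 182 at 24 long neuronal and fragile genes (17.03%, interval 12.3 to 23.2%). Heat gave 22.9% for the Zfp genes and 17.9% for the long genes, inside both intervals.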

How the data were processed

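Every value was computed from tables deposited for the series. BWA aligned the reads, per the submitters' processing notes, which also name SAMtools and bedtools for H3K4me3 and the builds mm10 and mm9 and give no versions. The program that called hotspots is not given in the sources used here. DMC1 heat is a deposited signal on a scale of its own in each map, and how it was calculated is not given in the sources used here. Per the file headers, H3K4me3 counts are ChIP or input fragments that overlap a 1 kb bin around each hotspot centre. Per the file headers, enrichment is a maximum-likelihood signal over local background. The deposited p-value comes from a likelihood ratio test of that enrichment, per the file headers. Over the autosomal Hum/Hum bins the deposited counts summed to 1090071 and 1091948 fragments in the 2 pseudoreplicates and 1032439 in input. Enrichment was missing for 4 bins, 1 of them lost.

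Tables were read with pandas 2.3.3 in Python 3.11.15. Statistics used SciPy 1.17.1 and NumPy 2.4.6, and figures used Matplotlib 3.10.9. Genes were those of GENCODE M21 and sequence that of RefSeq GRCm38.p6. Autosomes were used. A hotspot was retained when a heterozygote centre lay within 1000 bp. Retained hotspots were weighted to the heat of the lost in 10 strata. Shares have Wilson 95% intervals, and medians have 95% intervals from order statistics, which cover counting error or the spread over hotspots of 1 library only. The share given by heat is the share lost in each hotspot's decile of heat over all autosomes. The code was tested on simulated data.

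Named genes overlap the centre, or are nearest to it, for the 10 hottest lost hotspots, the 5 with the highest H3K4me3, the 5 on either side of the 1000 bp limit and lost hotspots at the meiotic lists, without bins whose input exceeds 10 times the median. One hotspot under the rule is not reported here. The hottest lost hotspots with no heterozygote centre within 2500 bp, and the sequences shown, were picked after values were seen. Members and lists were chosen with earlier results of these data known. Alternatives were other match distances, strata, pairing, list lengths, limits and windows. Other H3K4me3 tables, and the X chromosome, were not used here.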

Additional observations from a re-analysis of the deposited data

How the results depend on the processing

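The 5 comparisons of lost with retained hotspots, the share lost and the chromosome range were recomputed under alternatives. Most changed 1 choice. Fragment sums of 1 pseudoreplicate changed measure and library, the mm9 lists build and calling, and 1 alternative dropped both high-input and PRDM9-independent bins. The leave-out of each heterozygote list, of neighbours within 2500 bp, of B6 or PWD hotspots within 1000 bp and of heats over the 90th percentile of the lost, and the fragment sums with high-input bins kept, were chosen after seeing the data. No called direction turned. The H3K4me3 ratio of 0.616 was 0.559 with 1 retained hotspot paired to each lost one, 0.489 when retained meant found in all 3, 0.660 up to the 90th percentile of lost heat, 0.721 from fragment sums with high-input bins kept, and 0.611 to 0.616 from sums without them with either pseudoreplicate left out. Values against hotspots found in all 3 rest on few cool hotspots. Paired retained hotspots were hotter than the lost (median 30.3, against 23.75 in the lost), since cool retained hotspots were too few. The cause of the other shifts was not tested.

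The share lost of 20.2% was 19.6% at a match limit of 2000 bp, 26.3% with the heterozygote lists cut to the shortest, 31.8% without the B6/Hum list and 23.4% without Hum/PWD. The share absent from B6/Hum alone was 25.9% in mm10 and 21.7% with the mm9 lists, where B6/Hum was called jointly. The difference in hotspots without detected H3K4me3, 9.52 points, was 7.29 with lists cut, 15.8 when paired, 6.57 against hotspots found in all 3, 16.9 at a p limit of 0.001, 12.9 without B6 or PWD hotspots within 1000 bp and 6.57 without B6/Hum. The difference at 1 to 10 kb from a B6 or PWD hotspot, 7.01 points, was 4.30 at a match limit of 2000 bp, 5.04 when paired, 12.5 against hotspots found in all 3, 3.97 for 1 to 5 kb, 8.95 for 1 to 20 kb, 4.81 without those within 1000 bp and 5.21 without B6/Hum. The difference near transcription starts, -0.53 points, was -1.54 with lists cut, 0.54 without PRDM9-independent and high-input bins, -1.11 against hotspots found in all 3 and -1.08 without Hum/PWD. The motif difference, 0.21 points, was -1.65 in windows of 600 bp. The chromosome range, 9.38 points, was 12.9 without B6/Hum. No paired analysis was possible because each genotype has 1 DMC1 library.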
